A study of Mus musculus with 8 samples.

Results

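The genes described here encode RNA polymerase I and the nucleolar factors that build ribosomes, measured in the ileum of male mice with and without the bile acid transporter subunit gene Slc51a. They were chosen by symbol, by a rule that holds no measured value but was written with earlier results of these data known: the Nop, Utp, Rrp and Nol genes with a number after the letters, Polr1a to Polr1e, Imp3 and Imp4, and Fbl, Npm1, Ncl, Dkc1, Bop1, Wdr12, Pes1, Nolc1 and Myc. A further gene named by the rule, Gnl3, was not analysed here because no probe set listed it under a single symbol. This gave 50 genes of 17097 measured under a single symbol, and all 50 entered the test. Both groups were of C57BL/6 background, about 2 months old and fasted for 4 h. The wild-type group had 4 samples and the Slc51a knockout group, in which the gene was inactivated in the mouse, had 4. Each sample was whole ileal tissue on 1 Affymetrix 3' array, so fewer cells of a type and less RNA per cell cannot be told apart. The labels number the samples as biological replicates, and p-values measure the spread between these samples.

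Ribosomes are built in the nucleolus. RNA polymerase I transcribes one long precursor RNA, which small nucleolar particles modify chemically and which a large set of assembly factors, the small subunit processome among them, folds, cuts and joins to ribosomal proteins. Later factors mature the large and the small subunit separately and release them to the cytoplasm. The transcription factor Myc is known to drive many of these genes, and in the intestine ribosome production is highest in the dividing cells of the crypt.

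Values are log2 signals as deposited, so that 1 unit doubles the signal. Differences are knockout minus wild type, with the standard error (SE) of the limma fit and n = 4 per genotype. A gene is said to have risen or fallen where its adjusted p was under 0.05 over all 17097 genes. Slc51a itself fell from 11.36 ± 0.05 (SD, n = 4) to 4.60 ± 0.09, about the level of the median probe set. Among 7 listed ileum markers, Fabp6, Slc10a2 and Vil1 lay at 13.11, 11.42 and 12.07 in wild type. In the knockout they lay at 13.18, 10.97 and 11.83, and in both genotypes far above the median of all probe sets at 4.58. Of the 7 markers 0 rose, 5 did not pass and 2 fell, where 12.9% of all genes fell. The 2 were Slc10a2 (-0.45) and Vil1 (-0.24), which is also in the list of mature enterocyte markers. Pearson correlations between arrays across probe sets were 0.996 to 0.998 within a genotype and 0.988 to 0.992 between genotypes.

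Ribosome biogenesis transcripts were higher in the knockout by small amounts. The limma test called 24 of the 50 genes higher and 0 lower, and 26 did not pass. At an unadjusted p under 0.05, 2 genes were lower, Rrp1b and Utp14b. Over all genes tested 17.1% rose and 12.9% fell, and among genes at or above the median probe set, where 46 of the 50 lay, 25.4% rose. The median difference of the 50 genes was 0.19, against 0.01 over all genes. The difference was above 0 for 42 genes and below 0 for 8, and it ran from -0.19 in Rrp1b to 0.51 in Nop16. The largest fold was 1.43, in Nop16, and Fbl was 1.37-fold higher. For 27 genes the samples of the 2 genotypes did not overlap, as was so for 30.7% of all genes. Median centring of the arrays left 27 rises and 0 falls among the 50 genes with 21.6% of all genes higher, and cyclic loess left 22 rises and 2 falls (Rrp1b and Nol4l) with 14.5%. On 3 arrays the hybridization controls gave their lowest signals (wild type 2 among the wild-type arrays, and knockout 3 and knockout 4). When these 3 were left out, 11 of the 50 genes rose, with 12.2% of all genes, and the median difference was 0.13. The other 13 genes that had risen no longer passed: Polr1e, Nop56, Imp3, Imp4, Nop9, Nop14, Utp3, Utp6, Utp15, Bop1, Nop16, Rrp15 and Nol12.

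**Figure D1:**
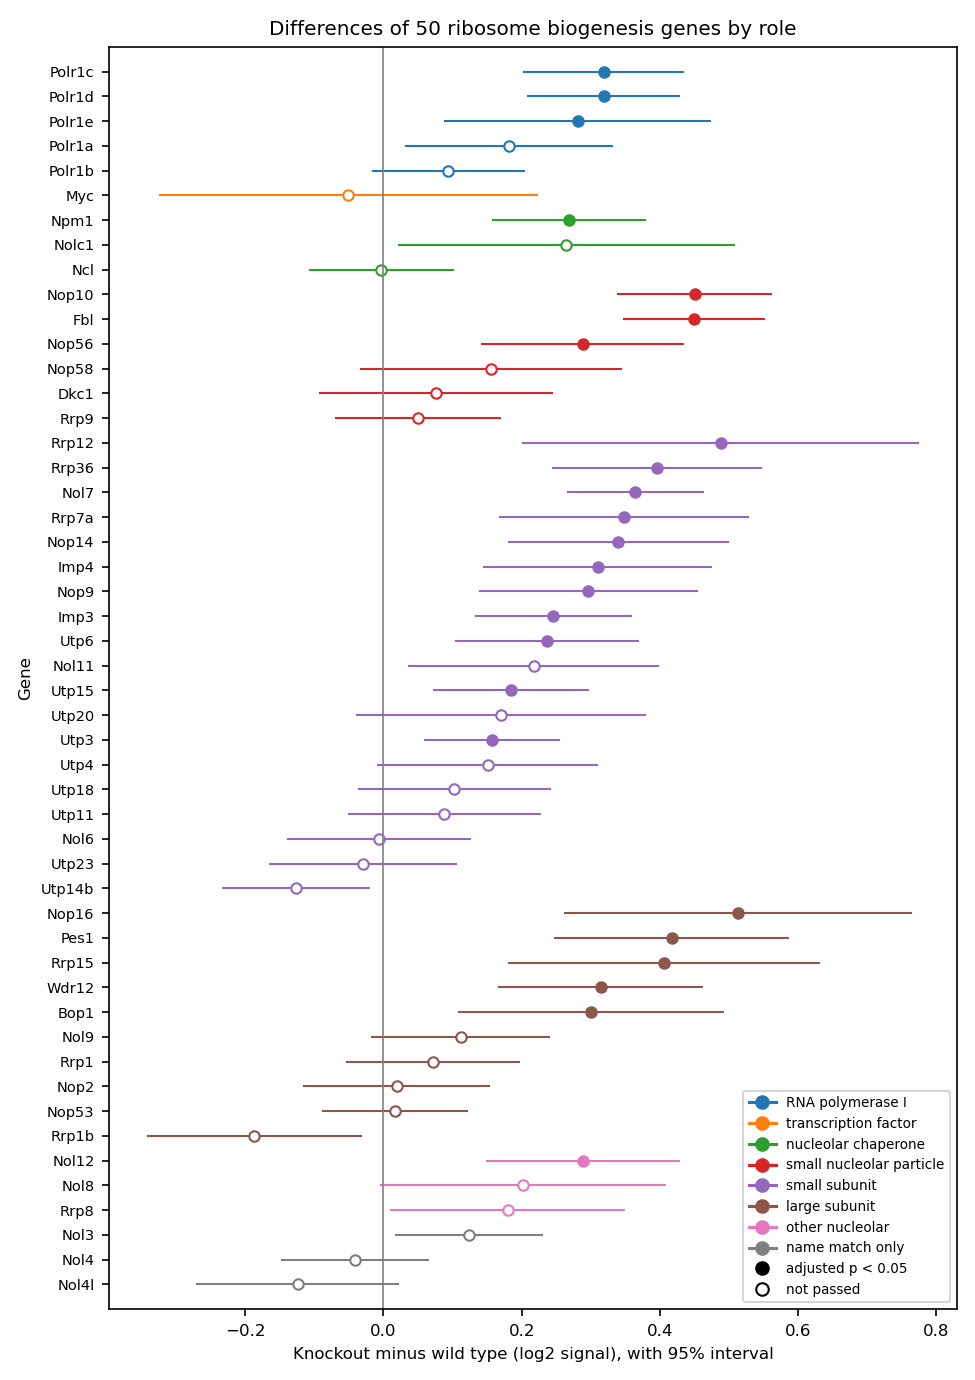
Difference between knockout and wild type (x axis, log2 signal) for each of the 50 genes (y axis), coloured by role, with 95% intervals from limma and filled points for adjusted p under 0.05. The 24 filled points all lie above 0, and of the 8 points below 0 the lowest, Rrp1b at -0.19, is open.

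RNA polymerase I was represented by 5 subunits, of which 3 rose, 0 fell and 2 did not pass. The subunits that RNA polymerase I shares with RNA polymerase III, Polr1c and Polr1d, rose. Polr1d, on chromosome 5 from 147076715 to 147111361 in GRCm38.p6, was at 9.48, 9.51, 9.44 and 9.53 in wild type and at 9.74, 9.78, 9.80 and 9.91 in the knockout. Every knockout sample lay above every wild-type sample, a rise of 0.32 (SE 0.05, adjusted p = 0.000616). Polr1c, on chromosome 17 from 46243920 to 46248045, was at 8.28, 8.44, 8.27 and 8.26 against 8.61, 8.60, 8.67 and 8.66. Its groups did not overlap either, although wild type 2 stood above the other wild-type samples, and it rose by 0.32 (SE 0.05, adjusted p = 0.000834). The second probe sets of these genes gave larger rises, 0.62 (SE 0.05) for Polr1c and 0.50 (SE 0.05) for Polr1d. Polr1e, a subunit particular to RNA polymerase I, was dim, at 4.36, 4.09, 4.47 and 4.38 in wild type and 4.59, 4.45, 4.62 and 4.77 in the knockout. The lowest knockout sample of Polr1e lay below the highest wild-type sample, and the rise of 0.28 (SE 0.09, adjusted p = 0.0305) straddled the median probe set. That call was lost without wild type 1 (adjusted p = 0.0514), wild type 2 (0.0685), knockout 1 (0.0552), knockout 3 (0.0656) or knockout 4 (0.0792), and with the 3 arrays left out the Polr1e difference was 0.12 (adjusted p = 0.289).

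The catalytic core of the enzyme is formed by the products of Polr1a and Polr1b, and neither gene passed. Polr1a was at 5.69, 5.78, 5.76 and 5.79 in wild type and at 6.09, 5.82, 5.82 and 6.02 in the knockout. All knockout samples were above all wild-type samples, with knockout 1 and knockout 4 well above the other two, and the difference was 0.18 (SE 0.07, adjusted p = 0.0648). Polr1a passed with quantile normalization (adjusted p = 0.0275), median centring (0.0243), the mean of its probe sets (0.0239), without knockout 2 (0.0362) and without knockout 3 (0.0384). Polr1b was at 4.997, 4.996, 5.05 and 5.06 against 5.14, 5.22, 5.06 and 5.06. Knockout 3 and knockout 4 lay level with the highest wild-type samples, and the difference was 0.09 with a 95% interval of -0.02 to 0.20 (adjusted p = 0.193).

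Myc, the regulator of the set, did not pass. It was at 6.80, 7.21, 7.45 and 7.41 in wild type and at 7.03, 7.21, 7.26 and 7.17 in the knockout. The wild-type samples were widely spread, with wild type 1 the lowest of all 8, and the knockout samples fell within their range. The difference was -0.05 (SE 0.12, adjusted p = 0.817), with a 95% interval of -0.32 to 0.22 on the log2 scale.

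Among the nucleolar chaperones, Npm1, which encodes the abundant histone and ribosome chaperone nucleophosmin, rose. Npm1, on chromosome 11 from 33152498 to 33164142, was at 10.53, 10.66, 10.62 and 10.60 in wild type and 10.78, 10.87, 10.92 and 10.90 in the knockout. The groups were separate, and the rise was 0.27 (SE 0.05, adjusted p = 0.00185), with 0.53 (SE 0.05) in its other probe set. Npm1 has many processed copies in the genome, so which copy its probes bind is uncertain. Nolc1, a scaffold for small nucleolar particles, differed by 0.26 (adjusted p = 0.0966), and knockout 2 lay within the wild-type range. It passed without knockout 2 (adjusted p = 0.0199), and its dimmest probe set rose by 0.30 (SE 0.08, adjusted p = 0.0216). Nucleolin, the product of Ncl, could not be assessed: its probe set was at 3.46, 3.42, 3.42 and 3.46 in wild type and 3.52, 3.38, 3.39 and 3.46 in the knockout, below the median probe set in every sample.

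The small nucleolar particles carry the enzymes that methylate and pseudouridylate ribosomal RNA. Of 6 such genes, 3 rose, 0 fell and 3 did not pass. Fbl encodes fibrillarin, the RNA methyltransferase of the box C/D particles, and lies on chromosome 7 from 28168893 to 28179269. It was at 9.14, 9.13, 9.16 and 9.21 in wild type and at 9.61, 9.63, 9.54 and 9.66 in the knockout. The spread within each genotype was small beside the gap between them, and Fbl rose by 0.45 (SE 0.05, adjusted p = 3.85e-05), with 0.50 (SE 0.06) in its other probe set. Nop10, a core protein of the pseudouridylating H/ACA particles, on chromosome 2 from 112261926 to 112262898, was at 10.07, 10.09, 10.06 and 10.20 against 10.55, 10.58, 10.49 and 10.61. It rose by 0.45 (SE 0.05, adjusted p = 6.67e-05) without overlap, and by 0.52 (SE 0.05) in its other probe set.

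The partners of these proteins were less uniform. Nop56, a box C/D core protein, rose by 0.29. Its close relative Nop58 was at 8.55, 8.71, 8.72 and 8.86 in wild type and 8.83, 8.69, 8.88 and 9.07 in the knockout. The genotypes overlapped for Nop58, and the difference of 0.16 had a 95% interval of -0.03 to 0.34 (adjusted p = 0.212). Dkc1, the pseudouridine synthase of the H/ACA particles, differed by 0.08 in its brightest probe set (adjusted p = 0.52), whereas the other Dkc1 probe set rose by 0.31 (SE 0.09, adjusted p = 0.0358). Rrp9, the protein specific to the particle that guides the early cuts, differed by 0.05 (adjusted p = 0.546).

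Of 19 genes of the small subunit processome and small subunit maturation, 11 rose, 0 fell and 8 did not pass. Nol7, a component of the processome on chromosome 13 from 43398376 to 43402858, was at 9.03, 9.03, 8.99 and 9.09 in wild type and at 9.37, 9.38, 9.42 and 9.44 in the knockout. The groups were tight and separate, and the rise was 0.36 (SE 0.04, adjusted p = 0.000124). Averaged over its 4 probe sets, of which the others are much dimmer, Nol7 differed by 0.11 (adjusted p = 0.0556). Rrp36, which takes part in the early cuts, was at 7.37, 7.22, 7.08 and 7.15 against 7.67, 7.52, 7.54 and 7.67. No knockout sample of Rrp36 fell within the wild-type range, and it rose by 0.40 (SE 0.07, adjusted p = 0.00115).

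Imp3 and Imp4 bind the small nucleolar RNA of the processome together. Imp3 was at 8.38, 8.44, 8.34 and 8.50 in wild type and 8.58, 8.72, 8.67 and 8.67 in the knockout. It rose by 0.25 (SE 0.05, adjusted p = 0.00364), with groups that were close but did not overlap. Nop14, another processome component, was at 5.38, 5.46, 5.47 and 5.72 against 5.79, 5.80, 5.87 and 5.93. Wild type 4 came near the lowest knockout sample, and Nop14 rose by 0.34 (SE 0.07, adjusted p = 0.00395). With the 3 arrays left out, Imp3 differed by 0.24 (adjusted p = 0.0543) and Nop14 by 0.27 (adjusted p = 0.1). The other genes of this role that rose were Rrp12 by 0.49, Rrp7a by 0.35, Imp4 by 0.31, Nop9 by 0.30, Utp6 by 0.24, Utp15 by 0.18 and Utp3 by 0.16. In Rrp12 the wild-type mean of 4.35 lay below the median probe set and knockout 4 stood well above the other knockout samples. It did not pass with the hybridization controls as a covariate (adjusted p = 0.0534), nor did Rrp7a when its probe sets were averaged (0.0705). The call of Utp15 was lost without wild type 3 and with cyclic loess, and that of Utp3 without wild type 2, with quantile normalization and with cyclic loess. All 3 probe sets of Utp6 rose, by 0.24, 0.59 and 0.43, so the size of its change depended on the probe set. Among those that did not pass, Nol11, Utp20, Utp4, Utp18 and Utp11 differed by 0.09 to 0.22, Nol6 and Utp23 by -0.01 and -0.03, and Utp14b, a retrogene copy known for its role in sperm formation, by -0.13. Utp23 turned to 0.16 when its 4 probe sets were averaged (adjusted p = 0.0445), the 3 dimmer ones differing by 0.14 to 0.32.

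**Figure D2:**
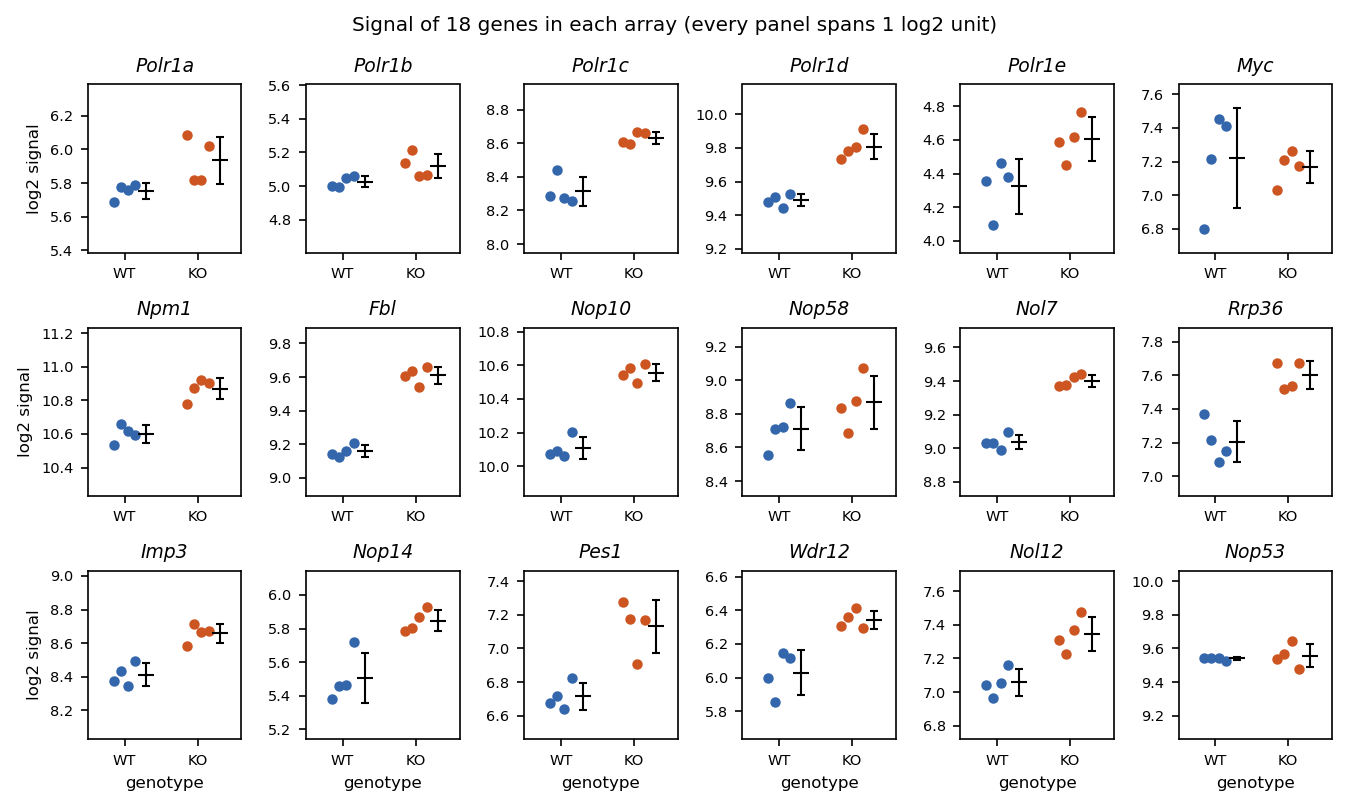
Log2 signal (y axis) of 18 genes in each wild-type (WT, blue) and knockout (KO, orange) sample (x axis, genotype), with the mean and SD of 4 samples beside the points; every panel spans 1 log2 unit. The genotypes are separate in Fbl, Nop10, Nol7, Polr1c and Polr1d, and overlap in Myc, Nop58 and Nop53.

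Of 10 genes of large subunit assembly, 5 rose, 0 fell and 5 did not pass. The products of Pes1, Bop1 and Wdr12 form a complex needed to process the precursor of the large subunit RNA. The transcripts of all 3 genes rose, and the complex itself was not measured. Pes1, on chromosome 11 from 3963975 to 3980004, was at 6.68, 6.72, 6.64 and 6.82 in wild type and 7.28, 7.17, 6.91 and 7.17 in the knockout. Knockout 3 was the lowest knockout sample but still above every wild-type sample, and Pes1 rose by 0.42 (SE 0.08, adjusted p = 0.00169). Wdr12, on chromosome 1 from 60071361 to 60098500, was at 6.00, 5.86, 6.15 and 6.12 against 6.31, 6.36, 6.41 and 6.30. The wild-type samples of Wdr12 varied more than the knockout samples, and it rose by 0.31 (SE 0.07, adjusted p = 0.00412). Bop1 rose by 0.30, a call lost without wild type 2, wild type 3 or knockout 1 (adjusted p = 0.0622, 0.0621 and 0.0564). Nop16 and Rrp15, other factors of the large subunit, rose by 0.51 and 0.41.

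The other large subunit factors did not pass. Nop53, which recruits the exosome to trim the large subunit precursor, was at 9.54, 9.55, 9.55 and 9.53 in wild type and 9.54, 9.57, 9.65 and 9.48 in the knockout. The knockout values lay on both sides of a narrow wild-type range, and the difference was 0.02 with a 95% interval of -0.09 to 0.12. Nop2, an RNA methyltransferase, differed by 0.02 with an interval of -0.11 to 0.15, Rrp1 by 0.07 and Nol9, a kinase acting on the processing site, by 0.11. Rrp1b, a relative of Rrp1, differed by -0.19 (adjusted p = 0.068). It passed as lower with quantile normalization, cyclic loess, array weights and without knockout 4.

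Among 3 nucleolar genes acting elsewhere in the pathway, Nol12, an RNA-binding protein of the nucleolus, was at 7.04, 6.97, 7.05 and 7.16 in wild type and 7.31, 7.23, 7.37 and 7.47 in the knockout. The genotypes were separate for Nol12, and it rose by 0.29 (SE 0.06, adjusted p = 0.0048). With the 3 arrays left out its difference was 0.18 (adjusted p = 0.0955). Nol8 and the methyltransferase gene Rrp8 differed by 0.20 and 0.18 and did not pass, although a second probe set of Nol8 rose by 0.58 (SE 0.10). Finally 3 genes match the rule by name but are not known as ribosome assembly factors, the apoptosis repressor Nol3, Nol4 and Nol4l, and none of them passed. Nol4l was at 8.65, 8.74, 8.50 and 8.57 in wild type and 8.49, 8.46, 8.40 and 8.62 in the knockout. Its samples overlapped, and the difference was -0.12 (SE 0.07, adjusted p = 0.198).

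Several genes were represented more than once on the array. Besides the probe set used, 28 of the 50 genes had 45 others, of which 26 lay at or above the median probe set. Of those 26, 10 rose and 0 fell when all probe sets were tested together. In the same test 22.6% of the 5447 such second probe sets of all genes rose and 14.1% fell. Among the genes that rose, 10 had such a second probe set and in 6 of them it rose as well: Fbl, Nop10, Npm1, Polr1c, Polr1d and Utp6. In the others it did not pass. It differed by 0.13 in Nol7 (adjusted p = 0.226), 0.19 in Imp4 (0.283), 0.17 in Utp15 (0.187) and -0.08 in Rrp7a (0.471). For 5 of the 50 genes the identifier marks possible binding to related transcripts, Fbl, Polr1c and Nop56 among them.

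The samples of a genotype moved partly together across the set. Averaged over the 50 genes, the signal was 6.89, 6.89, 6.88 and 6.98 in wild type and 7.10, 7.04, 7.08 and 7.20 in the knockout. Knockout 4 was the highest knockout sample for 31 of the 50 genes, and wild type 4 was the highest wild-type sample for 31. Knockout 2 was the lowest of its group for 21 genes. Without knockout 4, 23 genes rose and 1 fell, and without wild type 4, 26 rose. In each of these settings 15.7% of all genes rose. The median SD of a gene was 0.08 in wild type and 0.09 in the knockout.

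The Myc recognition sequence was looked for in the promoters, since Myc is known to bind it upstream of ribosome biogenesis genes. RefSeq promoters of GRCm38.p6 were found for 38 of the 50 genes. The palindromic motif CACGTG, which reads the same on both strands, was present within 250 bases upstream of a start site in 6 of the 38, which is 15.8%, against 8.78% of 13514 measured genes with a promoter. Of the 6, Imp4 and Rrp7a rose and Utp14b, Utp18, Nop2 and Nol11 did not pass. The motif was in 2 of 19 promoters of genes that rose and 4 of 19 of the others. The stretches around it are shown so that the position and flanks can be compared, each 5′ to 3′ on the strand of the gene with up to 40 bases on each side, ending at the start site, and with the motif in capitals.
Imp4, chr1:34439668-34439753, plus strand: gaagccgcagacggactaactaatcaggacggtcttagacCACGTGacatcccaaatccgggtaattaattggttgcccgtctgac
Rrp7a, chr15:83122964-83123049, minus strand: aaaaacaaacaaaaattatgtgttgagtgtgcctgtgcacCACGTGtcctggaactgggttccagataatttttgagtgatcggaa
Nol11, chr11:107189382-107189464, minus strand: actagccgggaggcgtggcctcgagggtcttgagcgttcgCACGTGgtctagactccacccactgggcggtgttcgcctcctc
Nop2, chr6:125131783-125131868, plus strand: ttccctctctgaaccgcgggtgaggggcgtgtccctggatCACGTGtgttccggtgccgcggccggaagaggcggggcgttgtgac
Utp14b, chr1:78658337-78658422, plus strand: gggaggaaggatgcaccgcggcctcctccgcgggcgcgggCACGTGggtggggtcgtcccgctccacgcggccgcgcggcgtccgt
Utp18, chr11:93885767-93885826, minus strand: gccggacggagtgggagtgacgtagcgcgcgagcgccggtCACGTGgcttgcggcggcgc
The motif began 208 bases upstream of the start in Rrp7a, 121 in Imp4, 63 in Utp14b, 60 in Nop2, 43 in Nol11 and 20 in Utp18. In this window the 2 genes that rose had it farther from the start than the other 4, which is a description of 6 promoters. For Utp14b the start site used, at 78658440, lies inside the gene span, which begins at 78657825. For the others the start site used is the end of the gene span where transcription begins.

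Other genes of the same machinery, outside the 50, were called higher more often than lower in each of the 6 lists examined first. That was also so over all genes, of which 17.1% rose and 12.9% fell. Among genes at or above the median probe set 25.4% rose. Of 16 RNA polymerase I factors and shared polymerase subunits, 6 rose (37.5%), 1 fell and 9 did not pass. Among the subunits common to all 3 nuclear polymerases, Polr2l rose by 0.64 (SE 0.06), Polr2h by 0.50 (SE 0.05), Polr2f by 0.45 (SE 0.05) and Polr2e by 0.42 (SE 0.05). The other rises of this list, named once their values were known, were Rrn3 by 0.31 (SE 0.07) and Tcof1 by 0.48 (SE 0.13). Most rises of this list were therefore in subunits not particular to RNA polymerase I. Small nucleolar particle assembly was represented by 10 genes, of which 7 rose (70%) and 1 fell, with a median difference of 0.34. The H/ACA core gene Nhp2 rose by 0.78 (SE 0.08), the assembly helicase Ruvbl1 by 0.64 (SE 0.09), the box C/D core gene Snu13 by 0.40 (SE 0.06) and the cochaperone Pih1d1 by 0.33 (SE 0.06), the last by 0.01 when its probe sets were averaged (adjusted p = 0.87). The falls in these lists, picked for naming once their values were known, were the promoter factor Taf1a (-0.23), at the level of the median probe set, and the cap methyltransferase Tgs1 (-0.23).

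Of 34 further genes of small subunit maturation, 14 rose (41.2%), 0 fell and 20 did not pass. Pno1, a late assembly factor, rose by 0.80 (SE 0.07), the processome genes Wdr36 and Wdr46 by 0.65 (SE 0.09) and 0.52 (SE 0.07), and the methyltransferase Bud23 by 0.39 (SE 0.06). Of 52 further genes listed for large subunit maturation, 17 rose (32.7%), 0 fell and 35 did not pass. Nsun2, which is in this list but is known mainly as a transfer RNA methyltransferase, rose by 0.57 (SE 0.07). The helicase Ddx54 rose by 0.45 (SE 0.06) and the assembly factor Brix1 by 0.35 (SE 0.07). Las1l, part of the nuclease complex that cuts the large subunit precursor, rose by 0.37 (SE 0.06). Rpf2, a large subunit factor listed in the small subunit list under an older name, is counted in both. Their median differences were both 0.16.

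The RNA exosome, which trims the precursors, and RNA polymerase III, which makes the smallest ribosomal RNA, gave similar counts. Of 19 genes of the exosome and nuclear trimming, 9 rose (47.4%), 1 fell and 9 did not pass. Exosc8, Exosc3 and Exosc9, subunits of the exosome ring and cap, rose by 0.47 (SE 0.07), 0.40 (SE 0.09) and 0.22 (SE 0.05). Exosc9 did not pass with cyclic loess (adjusted p = 0.0638), nor did Exosc3 and Exosc9 with the 3 arrays left out (0.104 and 0.0993). Mpp6, which rose by 0.58, is in mouse the symbol of a membrane scaffold gene and not of the exosome cofactor of that name, and Tent4b, picked for naming once its value was known, fell by 0.18. For RNA polymerase III, 8 of 19 genes rose (42.1%) and 11 did not pass. The initiation factor genes Gtf3c6, Gtf3a and Gtf3c3 rose by 0.48 (SE 0.06), 0.43 (SE 0.04) and 0.30 (SE 0.07). The subunit gene Polr3k rose by 0.48 (SE 0.07). With the 3 arrays left out, 9 genes of the small subunit list, 6 of the large subunit list, 2 of the exosome list, 5 of the RNA polymerase III list and, of the Myc network described next, 1 rose. In that setting 12.2% of all genes rose, so the large subunit list at 11.5% and the exosome list at 10.5% were no longer above that share. Of the RNA polymerase I factors and shared subunits 5 of 16 rose there (31.25%), and of the small nucleolar particle assembly genes 5 of 10 (50%). With cyclic loess 9 genes of the small subunit list rose (26.5%, against 14.5% of all genes), and without wild type 3, 11 of the large subunit list did (21.2%, against 14.6%).

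**Figure D3:**
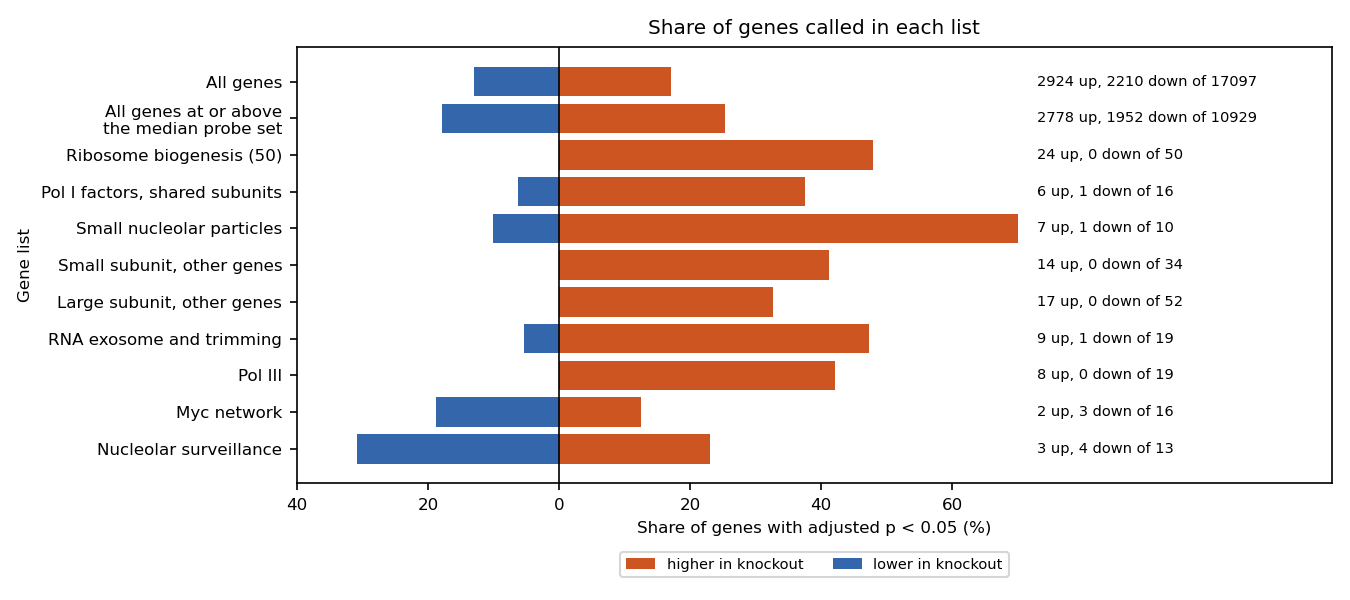
Share of genes (x axis, percent) with adjusted p under 0.05 in each list (y axis), higher in the knockout to the right in orange and lower to the left in blue, with counts at the right. The 50 ribosome biogenesis genes have 24 rises and 0 falls, and all genes have 2924 rises and 2210 falls of 17097.

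Partners of Myc and genes of nucleolar surveillance were counted in the same way. Of 16 Myc network genes, 2 rose (12.5%, against 17.1% of all genes), 3 fell and 11 did not pass. Mxd1, a Max-binding antagonist of Myc, changed by -0.75 (SE 0.09, adjusted p = 8.93e-05), from 9.67 ± 0.03 (SD, n = 4) to 8.92 ± 0.21. The Myc-stabilising kinase gene Pim1 changed by -0.49 (SE 0.07), the ubiquitin ligase gene Mycbp2 by -0.41 (SE 0.07) and Mycbp, a Myc-binding protein gene, by 0.74 (SE 0.05). Of 13 genes of nucleolar surveillance and its p53 targets, 3 rose (23.1%), 4 fell and 6 did not pass. In rises neither list was far from the share of all genes, 17.1%. Falls were 3 of 16 in the Myc network and 4 of 13 in surveillance, against 12.9% of all genes. The mean signal of the surveillance list ran from 8.26 to 8.35 in wild type and from 8.18 to 8.21 in the knockout, without overlap. For the Myc network it ran from 7.10 to 7.21 and from 7.08 to 7.19. The ribosomal protein genes Rpl11 and Rps27l rose by 0.26 (SE 0.04) and 0.30 (SE 0.04). The BH3-only gene Pmaip1 changed by -1.16 (SE 0.11) and the p53 inhibitor Mdm4 by -0.31 (SE 0.07), the latter by -0.07 when its probe sets were averaged (adjusted p = 0.22).

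Markers of cell types and of division differed between the genotypes in the same samples. Over all genes 17.1% rose and 12.9% fell. Of 30 crypt and proliferation markers, 20 rose, 3 fell and 7 did not pass, and their mean signal ran from 7.66 to 7.76 in wild type and from 7.94 to 8.11 in the knockout. All 20 that rose are genes of the cell cycle or DNA synthesis, and the 3 falls, picked for naming once their values were known, were in Lgr5, Olfm4 and Rnf43. Of the other crypt genes of the list, Smoc2, Cd44, Sox9, Ascl2 and Axin2 did not pass, with differences from -0.29 to 0.00. Of 17 mature enterocyte markers 14 fell, with a mean signal of 10.27 to 10.45 against 9.73 to 9.86. Smooth muscle markers fell in 12 of 12, with 9.25 to 9.63 against 8.53 to 8.77, and T lymphocyte markers in 16 of 18, with 6.06 to 6.22 against 5.10 to 5.32. B lymphocyte markers fell in 7 of 9, with 6.60 to 7.15 against 5.82 to 6.35. Of 13 myeloid markers 2 rose (15.4%) and 5 fell, and of 9 goblet and Paneth cell markers 1 rose (11.1%) and 2 fell. Neither share of rises was above the 17.1% of all genes. The values are log2 signals with no zeros, and the defining T lymphocyte gene Cd3g lay at 4.52 in the knockout, below the median probe set. Wild type 4 and knockout 4 were the highest of their groups for the ribosome biogenesis genes and also for the mean of the crypt and proliferation markers. They were the lowest of their groups for mature enterocyte and smooth muscle markers. The Gapdh control probe sets, which compare the 3' and 5' ends of a transcript as a sign of RNA quality, differed between the ends by 0.25 ± 0.07 in wild type and 0.13 ± 0.06 in the knockout (SD, n = 4, 2-sided exact permutation p = 0.0571, adjusted over 4 control measures 0.114). The part of these cell types and of RNA quality in the ribosome biogenesis differences was not tested.

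**Figure D4:**
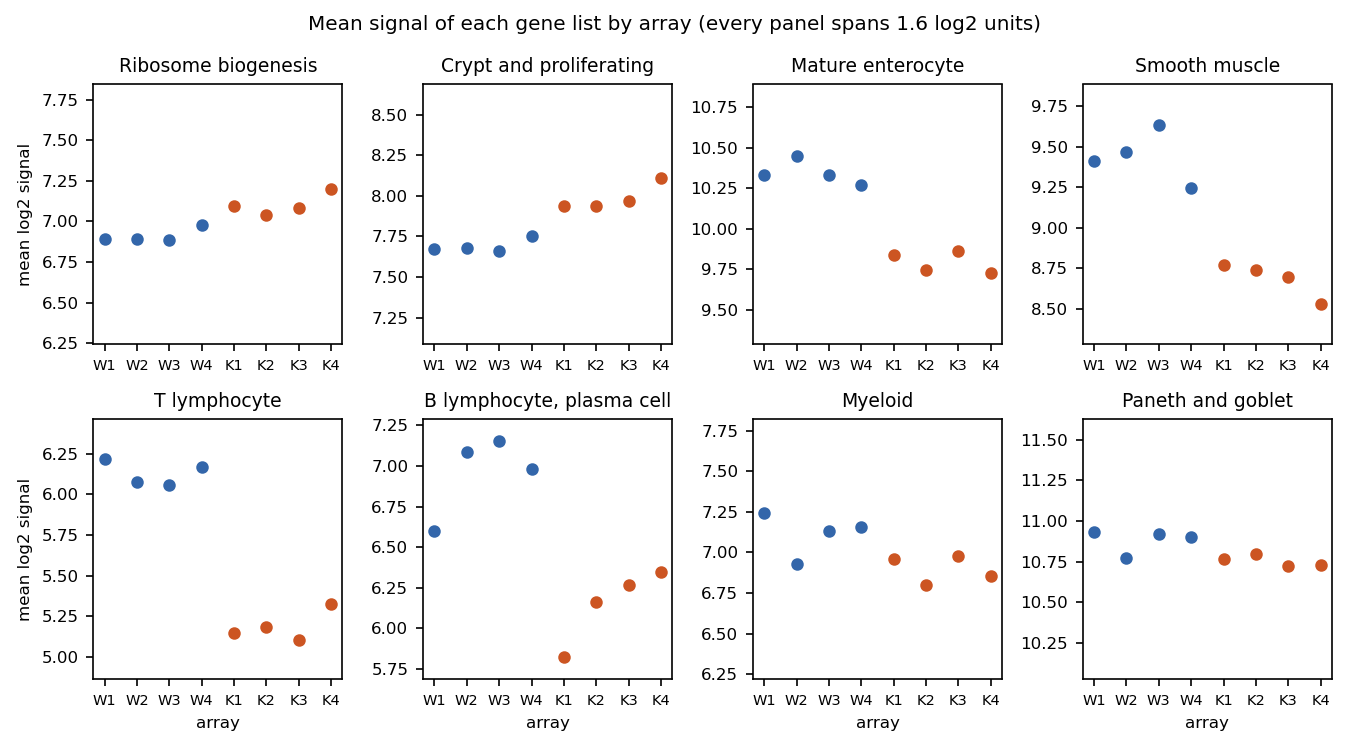
Mean log2 signal (y axis) of the 50 ribosome biogenesis genes and of 7 marker lists in each array (x axis, wild type W1 to W4 in blue and knockout K1 to K4 in orange). Ribosome biogenesis and proliferation signals are higher in all knockout arrays, and mature enterocyte, smooth muscle and T lymphocyte signals are lower.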

How the data were processed

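The authors deposited log2 signals of 8 arrays, for which the submitters' processing notes name RMA. The program that ran it is not given in the sources used here. Per the labels' protocols, 250 ng of RNA was labelled by 3' in vitro transcription. RMA compresses dim signals, so their differences may be understated. Of 45141 probe sets, 28898 had 1 symbol, updated by Entrez identifier to RefSeq GRCm38.p6 for 28689. The brightest represented a gene, with no filter. The fit used limma 3.58.1 under R 4.3.3 (lmFit, eBayes, 2-sided, Benjamini-Hochberg) and was tested on simulated data. The number of arrays limits the precision. Scan dates were not used here.

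Members and lists were chosen with earlier results of these data known, and lists were read by counts. Values in every sample are given for 7 preset genes and for the 12 smallest adjusted p at or above the median probe set. They are also given for up to 4 falls and for the 3 brightest that did not pass. By rule up to 4 genes per list are named, by their difference and without values in every sample. Alternatives were 3 normalisations, a filter on dim genes, the mean of probe sets, eBayes trend and robust, array weights, the replicate block, leaving out each array, leaving out 3 arrays and a hybridization control covariate. Figures used matplotlib 3.10.9.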

Additional observations from a re-analysis of the deposited data

Results flagged for a closer look

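In 4 of 100 groups of 4 samples (50 genes in 2 genotypes) one sample stood far from the other three, where chance gives about 5%. Polr1c was at 8.44 in wild type 2, against 8.26 to 8.28 in the other wild-type samples. Nop53 was at 9.53 in wild type 4, against 9.54 to 9.55. Rrp1 was at 8.59 in knockout 4, against 8.43 to 8.44. Nol4, which was dim, was at 3.98 in wild type 2, against 3.89 to 3.90.

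The array also carries control probe sets for the RNA that this machinery makes, the 18S ribosomal RNA, and the comparisons of genes leave them out. In wild type their mean log2 signal was 12.47 ± 0.03 (SD, n = 4), and in the knockout it was 12.57 ± 0.06. It ran from 12.43 to 12.49 and from 12.51 to 12.64, so the genotypes did not overlap. The difference was 0.10, with p = 0.0286 in a 2-sided exact permutation test, the smallest that 4 against 4 samples can give, and 0.114 after Benjamini-Hochberg adjustment over the 4 control measures compared. Ribosomal RNA carries no long poly(A) tail and the labelling starts from one, and these signals lay near the top of the scale, so they are no measure of ribosome number. The hybridization controls were at 8.57 ± 0.31 and 8.34 ± 0.20 (exact permutation p = 0.229). The difference between the 3' and 5' control probe sets was 0.25 and 0.13 for Gapdh (exact permutation p = 0.0571) and 0.41 and 0.44 for Actb (exact permutation p = 0.314), wild type first.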

How the results depend on the processing

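Over 18 alternatives the 24 risen genes kept their direction wherever tested, and 8 of them (Fbl, Nop10, Npm1, Pes1, Polr1c, Polr1d, Rrp36 and Wdr12) passed in each. Polr1e, which the filter on dim genes left out, was tested in 17. With the 3 arrays of lowest hybridization controls left out, which leaves 5, 11 rose, all of them among the 24. With the hybridization controls as a covariate 24 rose, with 14.5% of all genes. On leaving out each array in turn the risen members ran from 21 to 28 and the fallen from 0 to 1. The share of all genes that rose ran from 14.6% to 16.7% in these settings. Falls numbered 2 with quantile normalization, 2 with cyclic loess and 1 with array weights. Utp23 turned from -0.03 to 0.16 when its 4 probe sets were averaged (adjusted p = 0.0445), and the cause was not tested. Of all calls 57.0% were higher in the knockout, 67.1% with median centring and 47.7% with cyclic loess. The labels number the replicates within each genotype and name no pairs, so the numbers were not taken as pairs. Of the 4 wild-type samples, 2 correlated best with the knockout of their own number, and whether equal numbers share a batch was not tested. With the replicate block 27 members rose, the 24 among them, and 1 fell (Rrp1b). In that setting 25 of 52 genes of the large subunit list rose, against 17 without the block, and 17.2% of all genes rose. Dim signal limits Ncl, Nol3, Nol4 and Polr1e.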
